A study of Homo sapiens with 6 samples.

Results

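The dual-specificity MAP kinase phosphatases are enzymes that switch MAP kinases off by removing phosphate from both the threonine and the tyrosine of the activation loop. The 10 catalytically active members were taken by symbol: DUSP1, DUSP2, DUSP4, DUSP5, DUSP6, DUSP7, DUSP8, DUSP9, DUSP10 and DUSP16. All 10 had a row among the 20422 genes counted. They were followed in HepG2, an established human liver cancer cell line, by bulk RNA-Seq. There were 3 libraries of negative control cells with the empty vector (NC) and 3 of cells overexpressing the open reading frame of the microprotein APPLE fused to a Flag tag (ORF-Flag). APPLE is encoded by the long non-coding RNA ASH1L-AS1, and the study used this RNA-Seq to look into how APPLE regulates hepatocellular carcinoma. The level of ASH1L-AS1 was not analysed here, so the overexpression itself was not checked in these libraries.

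Delivery was by plasmid transfection according to the submitters' design text. It was by lentiviral infection with puromycin selection of stable lines according to the methods of the study. Both groups come from 1 cell line. Nothing states that the 3 libraries of a group were separate cultures, so the p-values measure only the spread between these libraries, which may be technical. The NC libraries held 20081203, 24907524 and 30088457 counts and the ORF-Flag libraries 26866148, 17494668 and 27015836, here as below in the order of the replicates 1, 2 and 3. Levels are given as CPM, counts scaled to a common library size after TMM normalization. At these depths 3 counts of a gene correspond to between 0.0997 and 0.171 CPM, a floor that covers counting error only. The identity of the cells was checked on marker lists. All 10 hepatocyte markers passed the filter on low counts, with ALB the most abundant per length and a summed level of 28412 to 29525 CPM in the 6 libraries. The sum hides a wide range, with TTR the lowest at a mean of 5.90 CPM in NC and 6.11 CPM in ORF-Flag. Of these 10, FGB rose (log2 fold change 0.14, SE 0.036, adjusted p = 0.0232, edgeR quasi-likelihood test with Benjamini-Hochberg adjustment). By adjusted p 0 fell in edgeR and in DESeq2, and at an unadjusted p below 0.05 there were 3 higher and 1 lower in both. Over all 12386 tested genes, for this and later counts by unadjusted p, 1151 were higher and 1142 lower in edgeR and 815 and 838 in DESeq2. By an adjusted p below 0.05 these numbers were 306 and 245 in edgeR and 230 and 183 in DESeq2. Of 7 fibroblast markers only PDGFRB passed the filter, DCN was at 0 in every library, and their sum lay between 0.632 and 1.08 CPM. Of 8 leukocyte and endothelial markers 3 passed, PTPRC, CD3E and MS4A1 were at 0 in every library, and the sum of 42.3 to 47.8 CPM was mostly CD68. None of these 4 tested genes passed an adjusted p of 0.05 in edgeR or DESeq2, and PECAM1 was higher at an unadjusted p below 0.05 in both.

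The libraries of a group were not equally alike. Over genes with enough counts, the chi-square statistic per degree of freedom was 5.23 between NC replicates 1 and 3 and between 2.39 and 3.57 for the other pairs of a group. The difference between NC replicates 1 and 3 followed base composition. Across 12345 genes, the log2 ratio of replicate 1 to replicate 3 had a Spearman correlation of 0.476 with the GC content of the longest transcript. For the log2 ratio of the ORF-Flag to the NC mean it was -0.260. Both are descriptions across genes, which are not independent replicates. The DUSP family spans this range of composition, from 45.6% GC in DUSP10 to 65.6% in DUSP9, against a median of 48.6% over tested genes. Fold changes from a fit corrected for the trends on GC content and transcript length, chosen after seeing the data, are given where they bear on a member.

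Every MAP kinase phosphatase pairs a catalytic domain with a docking domain that recognizes particular MAP kinases, and the family divides by location and preference. The nuclear members are encoded by inducible genes that growth factors and stress switch on in the early response. The cytoplasmic members prefer ERK, and a further class prefers the stress kinases JNK and p38. Because transcription of several members is itself raised by ERK signaling, their transcripts are widely read as a negative feedback output of the pathway.

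Of the 10 members, 9 had enough counts to be tested, all but DUSP2. DUSP5 and DUSP6, an ERK phosphatase of the nucleus and one of the cytoplasm, rose in ORF-Flag cells, by 1.75-fold and 1.14-fold. DUSP1 was 1.21-fold higher with an adjusted p just above 0.05. By adjusted p 0 members fell in edgeR and in DESeq2, and 1 (DUSP9) was lower at an unadjusted p below 0.05 in both, as were 1142 of all tested genes in edgeR and 838 in DESeq2. The 2 rises among 9 tested members stand beside 306 rises among all 12386 tested genes (2.47%), and the 0 falls beside 245 (1.98%). Without NC replicate 3 these numbers of all genes were 502 and 556, without NC replicate 1 they were 275 and 184, and without ORF-Flag replicate 3 they were 131 and 68, with 2, 3 and 1 rises among the members. By edgeR's estimate 6 members were higher and 3 lower, with a median log2 fold change of 0.15, where the median of all tested genes was -0.0012. In 3 members (DUSP1, DUSP5 and DUSP6) all ORF-Flag libraries lay above all NC libraries, an arrangement seen in 11.5% of tested genes, and in 1 (DUSP16) all lay below, as in 10.9%. In bulk RNA, fewer cells of a type and less RNA per cell cannot be told apart.

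**Figure D1:**
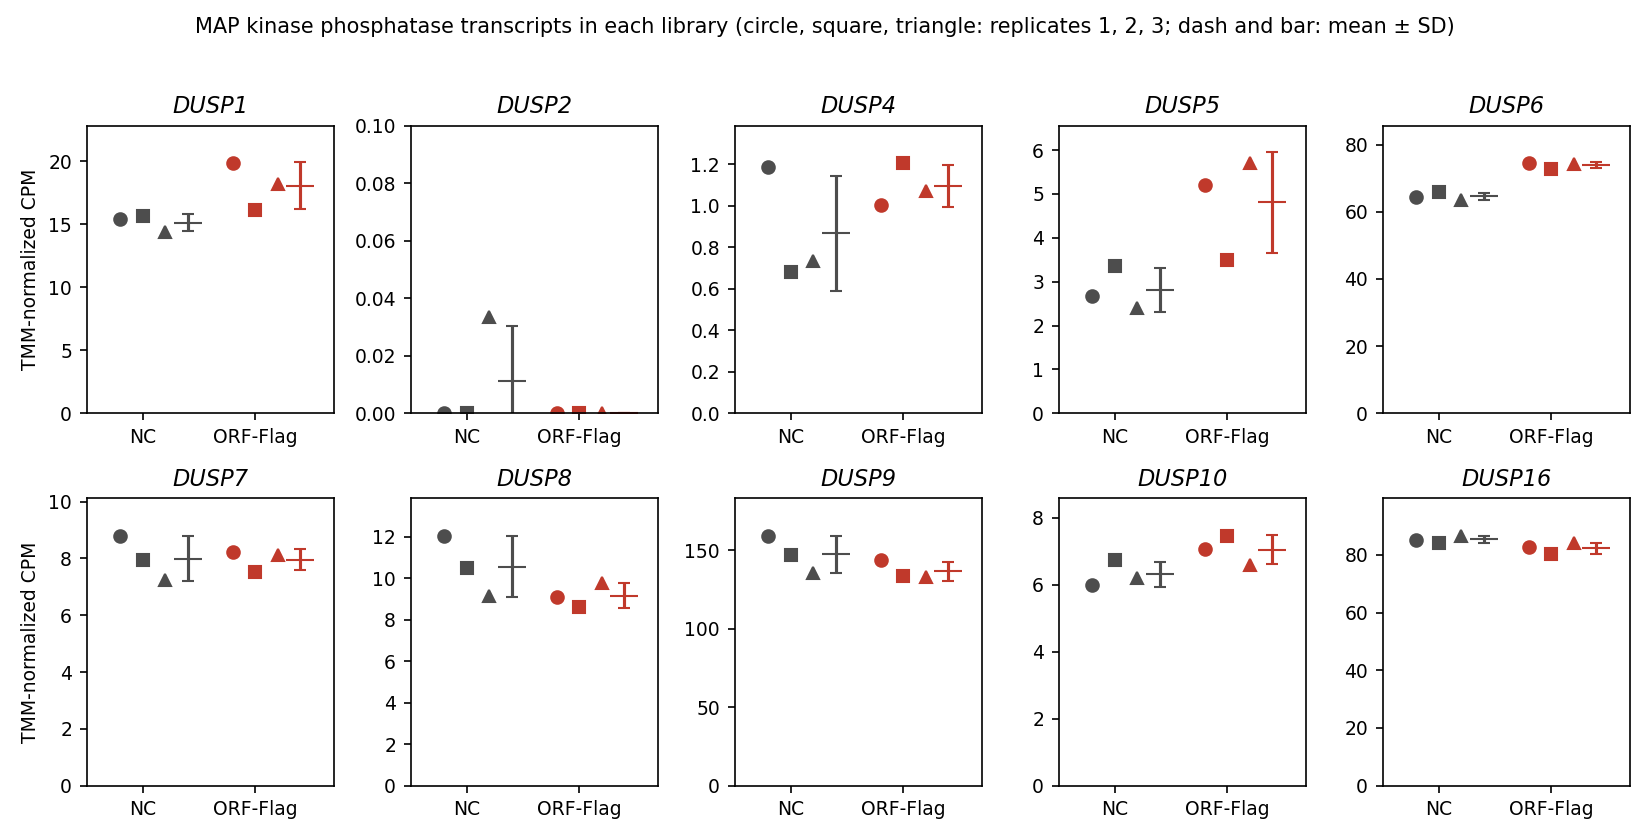
CPM of each of the 10 members in the NC (grey) and ORF-Flag (red) libraries, with circle, square and triangle for replicates 1, 2 and 3 and the mean ± SD beside them, each panel from 0 on its own scale. The ORF-Flag points lie above the NC points for DUSP1, DUSP5 and DUSP6, and DUSP2 has a single count in NC replicate 3.

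DUSP1 is a nuclear phosphatase that acts on p38, JNK and ERK and is a classical immediate early gene. It lies on the minus strand at chr5:172768090-172771195 (GRCh38, GENCODE v29). It had 15.4, 15.6 and 14.4 CPM in NC and 19.9, 16.1 and 18.2 CPM in ORF-Flag. The groups did not overlap, although ORF-Flag replicate 2 stood only slightly above the highest NC library. The log2 fold change was 0.27 (SE 0.079, 95% interval 0.11 to 0.43, adjusted p = 0.0504, edgeR quasi-likelihood test with Benjamini-Hochberg adjustment), so DUSP1 did not pass the threshold. It did pass in 6 of 16 alternative fits, over which the adjusted p in edgeR, DESeq2 and limma ranged from 0.0181 to 0.281. Among the 6 were the fit with GC and length trends removed (0.28, adjusted p = 0.0181) and the edgeR fits without NC replicate 1 (adjusted p = 0.0490) and without ORF-Flag replicate 2 (adjusted p = 0.0265).

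DUSP5, an inducible nuclear phosphatase specific for ERK that also holds ERK in the nucleus, lies on the plus strand at chr10:110497838-110511544. It was read by 54, 84 and 72 counts in NC and by 140, 61 and 154 counts in ORF-Flag. The levels were 2.67, 3.36 and 2.41 CPM in NC and 5.21, 3.50 and 5.70 CPM in ORF-Flag. ORF-Flag replicates 1 and 3 were clearly high, while replicate 2 lay close to NC replicate 2, so the groups were separated by a narrow gap. The log2 fold change was 0.81 (SE 0.18, 95% interval 0.44 to 1.17, adjusted p = 0.00842, edgeR with Benjamini-Hochberg adjustment), the largest among the 9 tested members. The call was lost in 1 of 16 alternative fits, the edgeR fit without ORF-Flag replicate 3 (log2 fold change 0.67, adjusted p = 0.0930). The adjusted p of the 16, in edgeR, DESeq2 and limma, ran from 3.7e-05 to 0.0930. Only 0.673% of its 31-base stretches also occur in another gene, the pseudogene DUSP5P1.

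Promoter sequences are shown for DUSP1, the nuclear member nearest the threshold, and for DUSP6, the cytoplasmic member that rose. A further sequence is that of DUSP8, which holds the same cAMP response element as DUSP1 and, like DUSP1, did not pass the threshold. RefSeq windows of 250 bases before to 50 bases after a transcript start (GRCh38.p14) were matched for 8 of the 10 members, in 10 windows, since DUSP9 and DUSP10 have 2 each. DUSP4 and DUSP5 had no window in the table used, which says nothing of their promoters. All 3 genes printed are on the minus strand, at chr5:172771146-172771445 for DUSP1, chr12:89352452-89352751 for DUSP6 and chr11:1572222-1572521 for DUSP8. Each sequence is written 5′ to 3′ in the direction of transcription. Capitals mark matches on either strand to the cAMP response element TGACGTCA, to its core TGACG, read on the other strand as CGTCA, which lies within the full element, and to the E-box CACGTG, which overlaps a core match in DUSP1. The DUSP6 window holds none of these and has no capitals. Its RefSeq start lies 770 bases downstream of the outer end of the GENCODE v29 gene, and the whole window lies inside that gene, so a start at the GENCODE end was not searched. For DUSP1 both annotations give the same start, and for DUSP8 that of RefSeq lies 351 bases upstream.
DUSP1: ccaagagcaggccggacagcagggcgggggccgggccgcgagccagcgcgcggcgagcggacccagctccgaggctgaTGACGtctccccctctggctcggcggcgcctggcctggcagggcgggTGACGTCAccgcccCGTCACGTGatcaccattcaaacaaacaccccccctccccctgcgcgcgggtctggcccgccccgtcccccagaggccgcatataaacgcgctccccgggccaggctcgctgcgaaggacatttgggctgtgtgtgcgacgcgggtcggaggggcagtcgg
DUSP6: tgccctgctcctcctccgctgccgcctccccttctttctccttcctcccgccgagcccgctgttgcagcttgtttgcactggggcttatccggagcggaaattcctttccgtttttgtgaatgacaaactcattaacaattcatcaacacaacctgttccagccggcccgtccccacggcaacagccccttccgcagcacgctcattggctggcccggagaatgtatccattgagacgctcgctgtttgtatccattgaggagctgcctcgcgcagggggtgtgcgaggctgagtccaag
DUSP8: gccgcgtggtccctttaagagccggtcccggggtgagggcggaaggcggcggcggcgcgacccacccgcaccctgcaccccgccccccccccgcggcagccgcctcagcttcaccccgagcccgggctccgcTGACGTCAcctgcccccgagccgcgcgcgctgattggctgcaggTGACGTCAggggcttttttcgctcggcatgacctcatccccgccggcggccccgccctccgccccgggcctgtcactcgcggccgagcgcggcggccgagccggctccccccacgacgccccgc

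Counted from the first transcribed base as +1, the full element TGACGTCA begins at -125 in DUSP1 and at -118 and -74 in DUSP8, and the other windows of the family lack it. It is found in 1.85% of all 35116 promoter windows, and its core TGACG, found in 24.6% of windows, occurs in DUSP1, DUSP8 and DUSP10. The E-box CACGTG, present in 7.26% of windows, begins at -108 in DUSP1 and at -113 in DUSP2. The letters of the AP-1 site TGANTCA (7.71% of windows) and the ETS pair CCGGAAG (10.3%), searched on both strands, were in none of the members' windows, nor was the CArG box of SRF (1.29%). On both strands NF-kappaB motifs (11.3%) matched in DUSP7 and DUSP9 and a half-site of the p53 element (6.63%) in DUSP7. The GC content of the windows was 73.3% for DUSP1, 58.3% for DUSP6 and 78.3% for DUSP8, against a median of 58.7% over all windows. A match describes letters in a window, and binding was not measured.

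DUSP4, a nuclear inducible phosphatase of ERK and JNK (chr8:29333064-29350668, minus strand), was scarce, with 24, 17 and 22 counts in NC and 27, 21 and 29 counts in ORF-Flag. On the CPM scale this was 1.19, 0.681 and 0.735 in NC and 1.01, 1.21 and 1.07 in ORF-Flag. NC replicate 1 stood at the level of the ORF-Flag libraries and the groups overlapped. The log2 fold change of 0.36 had a 95% interval of -0.23 to 0.95 (adjusted p = 0.558, edgeR with Benjamini-Hochberg adjustment) and did not pass the threshold. In edgeR with 1 library left out it ran from 0.22 without NC replicate 2 to 0.61 without NC replicate 1. DUSP2, a nuclear phosphatase known mainly from activated blood cells (chr2:96143166-96145440, minus strand), had 1 count in NC replicate 3 and 0 in the other 5 libraries. Both groups were under the floor of 3 counts, so it was not tested and no fold is given.

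DUSP6 is a cytoplasmic phosphatase highly selective for ERK, and its transcript is among the standard readouts of ERK activity. It lies on the minus strand at chr12:89347232-89353271. It had 64.5, 65.8 and 63.6 CPM in NC and 74.5, 72.8 and 74.4 CPM in ORF-Flag. Both groups were tight, with a coefficient of variation of 1.71% in NC and 1.26% in ORF-Flag, and the lowest ORF-Flag library lay well above the highest NC library. The log2 fold change was 0.19 (SE 0.042, 95% interval 0.11 to 0.28, adjusted p = 0.00768, edgeR with Benjamini-Hochberg adjustment), and rested on at least 1268 counts in each library. It passed in all 16 alternative fits, with log2 fold changes of 0.18 to 0.21 and an adjusted p, in edgeR, DESeq2 and limma, of 0.00179 to 0.0497. It did not pass the other call rule, a fold change above 1.2 with an unadjusted p below 0.05, which in edgeR called DUSP5 and DUSP1. In GENCODE v29 a non-coding gene on the opposite strand, which has no row in the counted table, overlaps 1875 bases of DUSP6 exons. The strand setting of the counting is not given in the sources used here, so reads of the antisense transcript and of DUSP6 cannot be told apart.

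DUSP9, also cytoplasmic and ERK-preferring and encoded on the X chromosome at chrX:153642492-153651326, had 159, 147 and 136 CPM in NC and 143, 133 and 133 CPM in ORF-Flag. NC replicate 1 was the highest library, NC replicate 3 lay among the ORF-Flag values, and the groups overlapped. The log2 fold change was -0.11 (SE 0.046, 95% interval -0.20 to -0.0097, adjusted p = 0.220, edgeR with Benjamini-Hochberg adjustment) and did not pass the threshold. It passed in 1 of 16 alternative fits, the edgeR fit without NC replicate 3 (-0.16, adjusted p = 0.00869), while without NC replicate 1 it was -0.048 (adjusted p = 0.613, the highest of the 16). The transcript of DUSP9 is richer in GC than that of 97.0% of tested genes, and with the trends on GC content and length removed its log2 fold change in edgeR was -0.037 (adjusted p = 0.542).

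DUSP7, the remaining cytoplasmic ERK phosphatase (chr3:52048919-52056550, minus strand), had 8.80, 7.93 and 7.25 CPM in NC and 8.23, 7.53 and 8.11 CPM in ORF-Flag. The ORF-Flag libraries lay wholly within the range of the NC libraries. Its log2 fold change of 0.0077 (95% interval -0.21 to 0.23, adjusted p = 0.981, edgeR with Benjamini-Hochberg adjustment) had no stable sign. The mean was 7.99 CPM in NC and 7.96 CPM in ORF-Flag, and 4 of 16 alternative fits gave a log2 fold change below 0, the lowest being -0.063 without NC replicate 3.

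**Figure D2:**
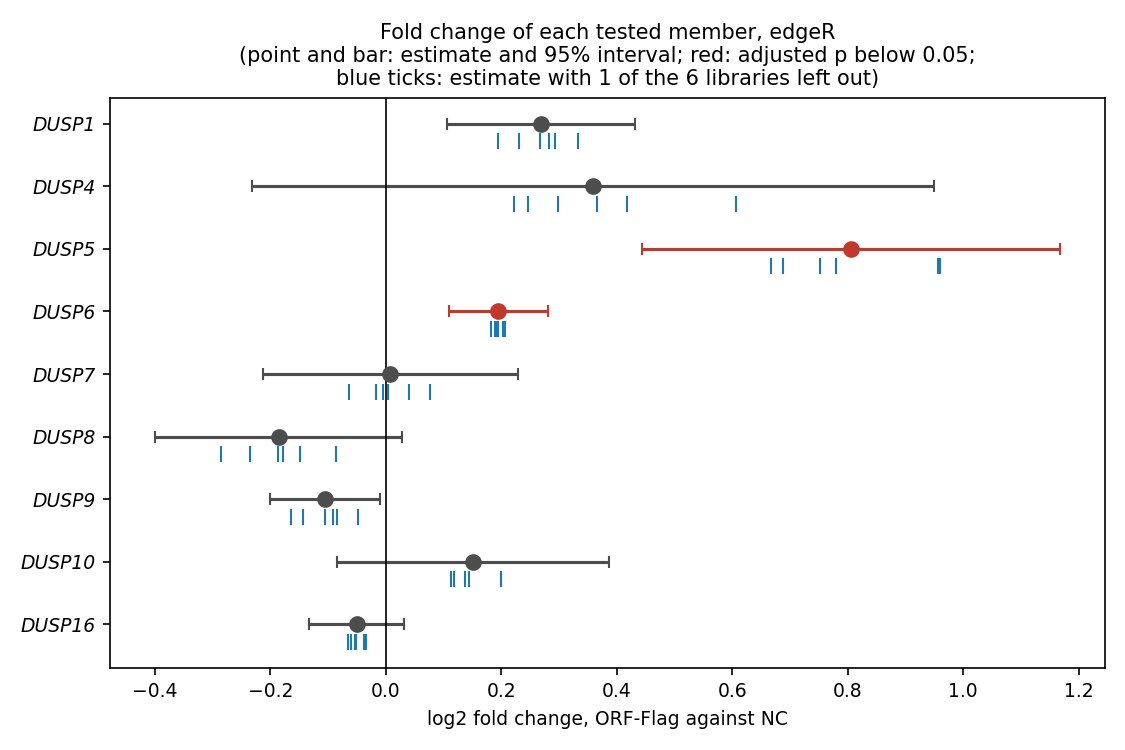
Log2 fold change of ORF-Flag against NC for the 9 tested members (points) with 95% intervals (bars), red where the adjusted p was below 0.05, and the estimate with each of the 6 libraries left out as blue ticks. DUSP5 (0.81) and DUSP6 (0.19) are red, the ticks of DUSP6 run from 0.18 to 0.21, and those of DUSP7 lie on both sides of 0.

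Of the 3 members of the JNK- and p38-selective class, none passed an adjusted p of 0.05 in edgeR or DESeq2, or an unadjusted p of 0.05 in either. DUSP8 (chr11:1554044-1571920, minus strand) had 12.1, 10.5 and 9.15 CPM in NC and 9.12, 8.62 and 9.78 CPM in ORF-Flag. Again NC replicate 1 was highest, and NC replicate 3 lay among the ORF-Flag libraries. The log2 fold change was -0.19 (95% interval -0.40 to 0.028, adjusted p = 0.354, edgeR with Benjamini-Hochberg adjustment). In edgeR it was -0.087 without NC replicate 1 and -0.29 without NC replicate 3. With the GC and length trends removed it was -0.12 in edgeR (adjusted p = 0.530), and over all 16 alternative fits the adjusted p ran from 0.0915 to 0.756. DUSP8 is GC-rich like DUSP9, at 64.6%, and shares 7.07% of its 31-base stretches with the pseudogene DUSP8P5, so a part of its reads may have been assigned elsewhere.

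In DUSP7, DUSP8 and DUSP9, which have the highest GC content of the tested members, NC replicate 1 exceeded NC replicate 3 by 0.28, 0.40 and 0.23 on the log2 scale. In DUSP6, DUSP10 and DUSP16, with less than the median GC content of tested genes, the same difference was 0.022, -0.054 and -0.026. It was 0.095 in DUSP1 and 0.15 in DUSP5, at 55.1% and 55.9% GC. It was largest in DUSP4, 0.69 on 24 and 22 counts, which at 51.3% GC lies near the median, so GC content does not order the members fully. In DUSP4 and the 3 GC-rich members this difference within NC was larger than the difference between the groups.

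DUSP10, which inactivates JNK and p38 in nucleus and cytoplasm (chr1:221701424-221742176, minus strand), had 5.98, 6.73 and 6.21 CPM in NC and 7.08, 7.47 and 6.59 CPM in ORF-Flag. The highest NC library stood above the lowest ORF-Flag library, and the log2 fold change was 0.15 (95% interval -0.084 to 0.39, adjusted p = 0.528, edgeR with Benjamini-Hochberg adjustment). DUSP16, a JNK-selective phosphatase that shuttles between nucleus and cytoplasm (chr12:12474210-12562383, minus strand), had 85.1, 84.2 and 86.7 CPM in NC and 82.7, 80.3 and 84.0 CPM in ORF-Flag. All ORF-Flag libraries lay below all NC libraries, by a margin far smaller than the spread within a group. Its log2 fold change was -0.050 (95% interval -0.13 to 0.032, adjusted p = 0.551, edgeR with Benjamini-Hochberg adjustment), with an upper bound below the lower bounds of DUSP5 and DUSP6.

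To compare levels between genes, CPM were divided by the length of the union of exons, giving CPM per kilobase (RPKM). DUSP9 had the highest level per length, 53.1 ± 4.25 RPKM in NC and 49.2 ± 2.14 RPKM in ORF-Flag (SD, n = 3), above that of 93.9% of tested genes. DUSP16 was at 14.9 ± 0.221 RPKM in NC and 14.4 ± 0.332 RPKM in ORF-Flag. DUSP6 was at 14.0 ± 0.238 RPKM in NC and 16.0 ± 0.201 RPKM in ORF-Flag, so DUSP16 was the higher in NC and DUSP6 in ORF-Flag, with no overlap of libraries in either group. DUSP1 came next at 7.49 ± 0.319 RPKM in NC and 8.95 ± 0.921 RPKM in ORF-Flag.

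The lower members were close together. DUSP8 was at 2.29 ± 0.316 RPKM in NC and 1.99 ± 0.126 RPKM in ORF-Flag, and DUSP10 at 2.16 ± 0.130 RPKM and 2.42 ± 0.150 RPKM. Their libraries overlapped in NC and lay apart in ORF-Flag. DUSP7 was at 1.42 ± 0.138 RPKM in NC and 1.41 ± 0.0669 RPKM in ORF-Flag, and DUSP5 at 1.08 ± 0.189 RPKM and 1.84 ± 0.442 RPKM. DUSP5 thus stood below DUSP7 in NC and above it in ORF-Flag, with overlapping libraries in both groups, and it also overlapped DUSP8 in ORF-Flag. This crossing rests on the length used: with the longest transcript as length DUSP5 lay below DUSP7 in both groups, at 1.10 and 2.39 RPKM in NC and at 1.88 and 2.38 RPKM in ORF-Flag. On that length DUSP7 also stood above DUSP8, at 2.39 and 2.20 RPKM over the 6 libraries. DUSP4 was at 0.120 ± 0.0383 RPKM in NC and 0.151 ± 0.0141 RPKM in ORF-Flag, a level per length above that of only 3.14% of tested genes.

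**Figure D3:**
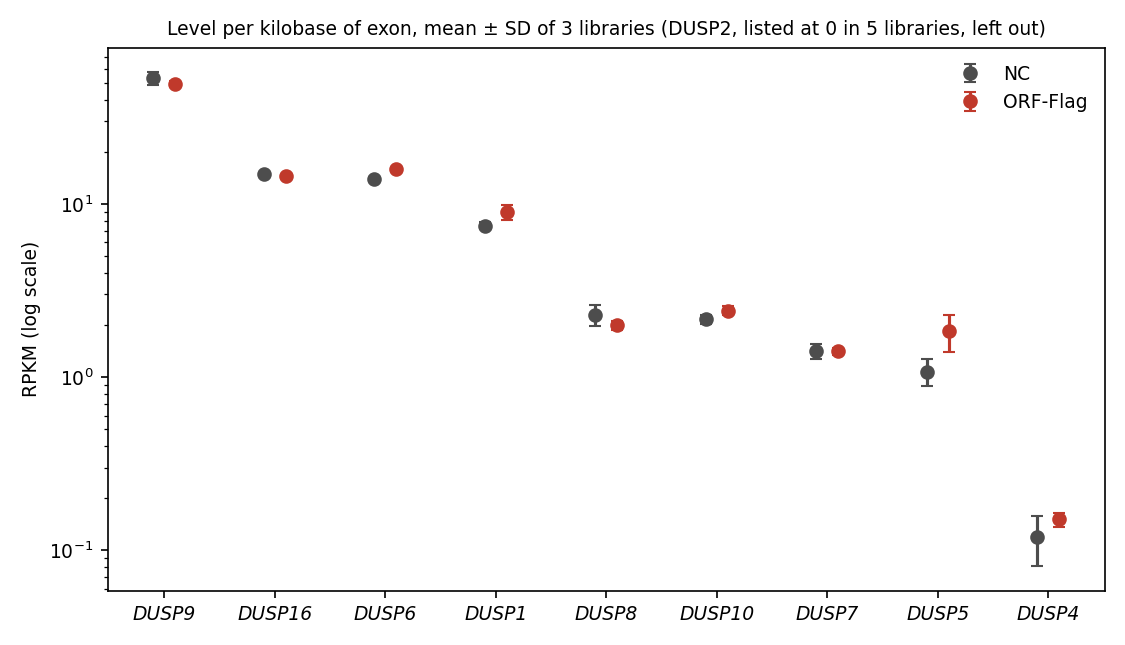
Level per length (union of exons) of 9 members in RPKM on a log axis, as the mean ± SD of the 3 NC (grey) and 3 ORF-Flag (red) libraries, ordered by level in NC. DUSP9 stands at 53.1 and 49.2 RPKM, and DUSP5 lies below DUSP7 in NC and above it in ORF-Flag.

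Summed over the family, the level per length was 96.5 ± 4.97 RPKM in NC and 96.3 ± 3.50 RPKM in ORF-Flag (SD, n = 3), a difference far within the spread. The nuclear inducible class summed to 8.80, 9.11 and 8.17 RPKM in NC and to 12.0, 9.50 and 11.4 RPKM in ORF-Flag. Its share of the family sum was 9.01% ± 0.352 in NC and 11.3% ± 0.985 in ORF-Flag, mostly DUSP1 transcripts, and the class sums of the groups did not overlap. The cytoplasmic ERK-selective class held 70.9% ± 1.03 of the sum in NC and 69.1% ± 0.870 in ORF-Flag. Of the same family sum, DUSP9 alone held 55.0% ± 1.61 in NC and 51.1% ± 0.972 in ORF-Flag, and DUSP6 14.5% ± 0.647 and 16.6% ± 0.435. The JNK- and p38-selective class held 20.1% ± 0.912 in NC and 19.5% ± 0.588 in ORF-Flag, a difference below the larger SD. Its sums were 19.5, 19.3 and 19.3 RPKM in NC and 18.9, 18.5 and 19.1 RPKM in ORF-Flag, so these too did not overlap, with ORF-Flag the lower. This class is mostly DUSP16, at 15.5% of the family sum in NC, and the nuclear class mostly DUSP1. Both sums thus largely repeat the arrangement of 1 member. Among single tested genes 11.5% lay wholly above and 10.9% wholly below, so neither sum is read as a result. The sums of the cytoplasmic class overlapped. These shares and sums were not tested, and shares of 1 sum depend on each other.

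**Figure D4:**
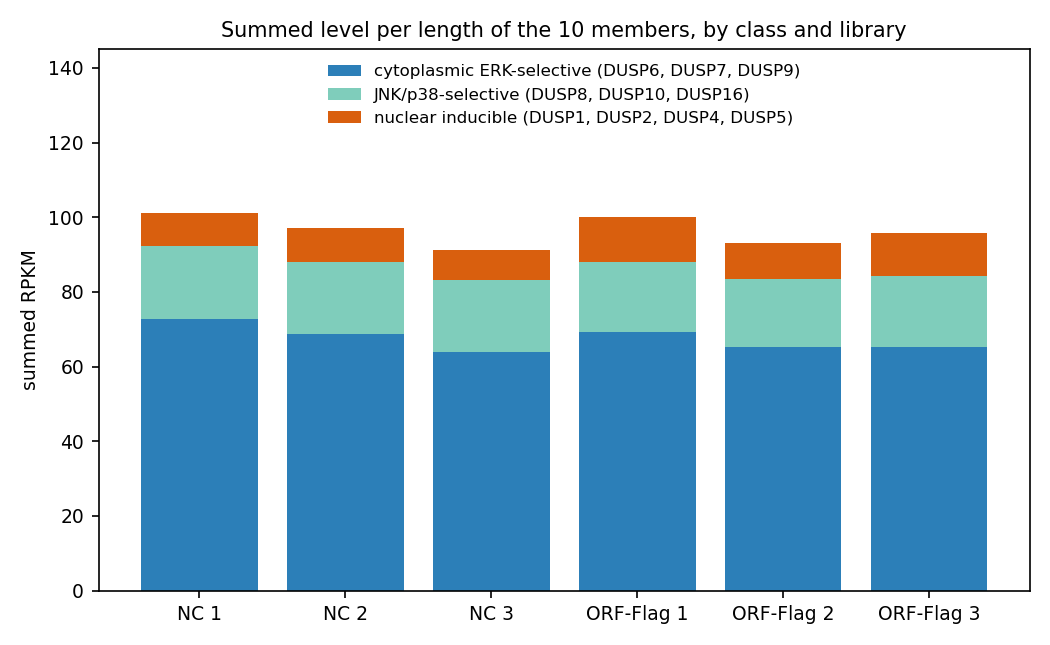
Summed level per length (RPKM, from 0) of the cytoplasmic ERK-selective, JNK- and p38-selective and nuclear inducible members in each of the 6 libraries. The total runs from 91.3 RPKM in NC replicate 3 to 101 RPKM in NC replicate 1, and the nuclear inducible band from 8.17 to 12.0 RPKM.

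The other tested genes whose log2 CPM followed DUSP6 most closely over the 6 libraries, among 11559 genes with a mean of at least 1 CPM, were ETV4 (Pearson r = 0.996), JAK3 (0.995) and CXADR (0.992). For DUSP5 they were TOR1B (r = 0.993), RNF146 (0.993) and SHANK2 (0.981). These r describe likeness over 6 libraries that share the group difference and the depth of each library. In all, 112 genes exceeded 0.95 with DUSP6 and 28 with DUSP5.

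Outside the family, 95 further genes of MAPK signaling were examined, of which 80 were tested. Of these 10 rose and 1 fell in edgeR, beside 2.47% and 1.98% of all 12386 tested genes, with a median log2 fold change of 0.023. In DESeq2 8 rose and 1 fell. The atypical dual-specificity phosphatases are mostly small relatives without the docking domain. Of 16, 11 were tested, 6 higher and 5 lower with a median log2 fold change of 0.0028. None passed an adjusted p of 0.05 in edgeR or DESeq2, or an unadjusted p of 0.05 in either. DUSP11, the most abundant of them per length, was at 13.2 RPKM in both groups. Of 12 other phosphatases that act on MAPK pathways, 9 were tested, 3 higher and 6 lower with a median log2 fold change of -0.012. PPM1D rose from 44.8 ± 0.908 to 50.7 ± 1.91 CPM (log2 fold change 0.18, adjusted p = 0.0387, edgeR with Benjamini-Hochberg adjustment), a call that DESeq2 did not make. It was also lost in edgeR on leaving out any of 5 of the 6 libraries (all but NC replicate 1), with an adjusted p of up to 0.197. By adjusted p none of these 9 fell in edgeR or DESeq2, and 1 was lower at an unadjusted p below 0.05 in edgeR. PPP2CB, a catalytic subunit of PP2A and the most abundant per length, was at 31.1 RPKM in NC and 30.8 RPKM in ORF-Flag.

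The MAP kinases on which the DUSPs act, and the kinases above them, held no call. In the ERK cascade 17 of 18 genes were tested, 11 higher and 6 lower, with a median log2 fold change of 0.013 within -0.080 to 0.076. None passed an adjusted p of 0.05 in edgeR or DESeq2, or an unadjusted p of 0.05 in either. RPS6KA3, an ERK-activated kinase, was the most abundant per length at 35.3 RPKM in NC and 36.0 RPKM in ORF-Flag. In the JNK and p38 cascades 18 of 20 were tested, 8 higher and 10 lower, with a median log2 fold change of -0.013. None passed an adjusted p of 0.05 in edgeR or DESeq2, and 1 was lower at an unadjusted p below 0.05 in both. MAP2K3, an activator of p38, was the most abundant per length at 17.9 RPKM in NC and 17.3 RPKM in ORF-Flag. Of the Sprouty and SPRED proteins, which like DUSP6 restrain ERK signaling by feedback, 5 of 7 were tested, 4 higher and 1 lower with a median log2 fold change of 0.034. None passed an adjusted p of 0.05 or an unadjusted p of 0.05 in edgeR or DESeq2. SPRED2 was the most abundant per length at 7.77 RPKM in NC and 8.22 RPKM in ORF-Flag.

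Genes known to respond to ERK and AP-1, as DUSP5 and DUSP6 do, held most of the calls. Of 22, 20 were tested, 14 higher and 6 lower with a median log2 fold change of 0.20. In edgeR 9 rose and 1 fell, beside the 2.47% and 1.98% of all tested genes, and in DESeq2 8 rose and 1 fell. The stress-inducible factor ATF3 went from 4.74 ± 0.191 to 8.97 ± 0.782 CPM (log2 fold change 0.93, adjusted p = 1.6e-05, edgeR with Benjamini-Hochberg adjustment). By the same test the AP-1 subunit FOSL1 went from 11.1 ± 1.48 to 15.8 ± 0.624 CPM (0.50, adjusted p = 0.00143) and the receptor EPHA2 from 175 ± 9.38 to 206 ± 7.17 CPM (0.23, adjusted p = 0.000795). KLF6 rose by 0.25 on the log2 scale (edgeR, adjusted p = 0.00138). IER3 rose by 0.24 (edgeR, adjusted p = 0.00286) and was the most abundant per length, at 45.4 RPKM in NC and 53.7 RPKM in ORF-Flag. These 5 calls held in edgeR with any library left out. Of the other 4 rises, the calls of FOSB, JUN, ETV4 and JUNB were lost in 2, 3, 4 and 5 of these 6 fits. FOSB had only 3, 4 and 5 counts in NC, near the floor of 3 counts, and 12, 12 and 25 counts in ORF-Flag. It passed the filter on low counts only through the ORF-Flag libraries, so its call is no support for the list. With at least 10 counts required in every library, 9 of the other MAPK genes rose in edgeR. The call of CCND1, which fell from 121 ± 4.95 to 110 ± 1.78 CPM (-0.14, adjusted p = 0.0346), was lost in edgeR on leaving out any of 5 libraries (all but NC replicate 3), with an adjusted p of up to 0.160. Counted over all lists, the rises numbered 10, but 5 without NC replicate 2 or without ORF-Flag replicate 3 and 6 without ORF-Flag replicate 2. The lists were written from general knowledge, with earlier results of these data known. They describe these genes only, and whether these genes moved more than other genes was not tested.

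**Figure D5:**
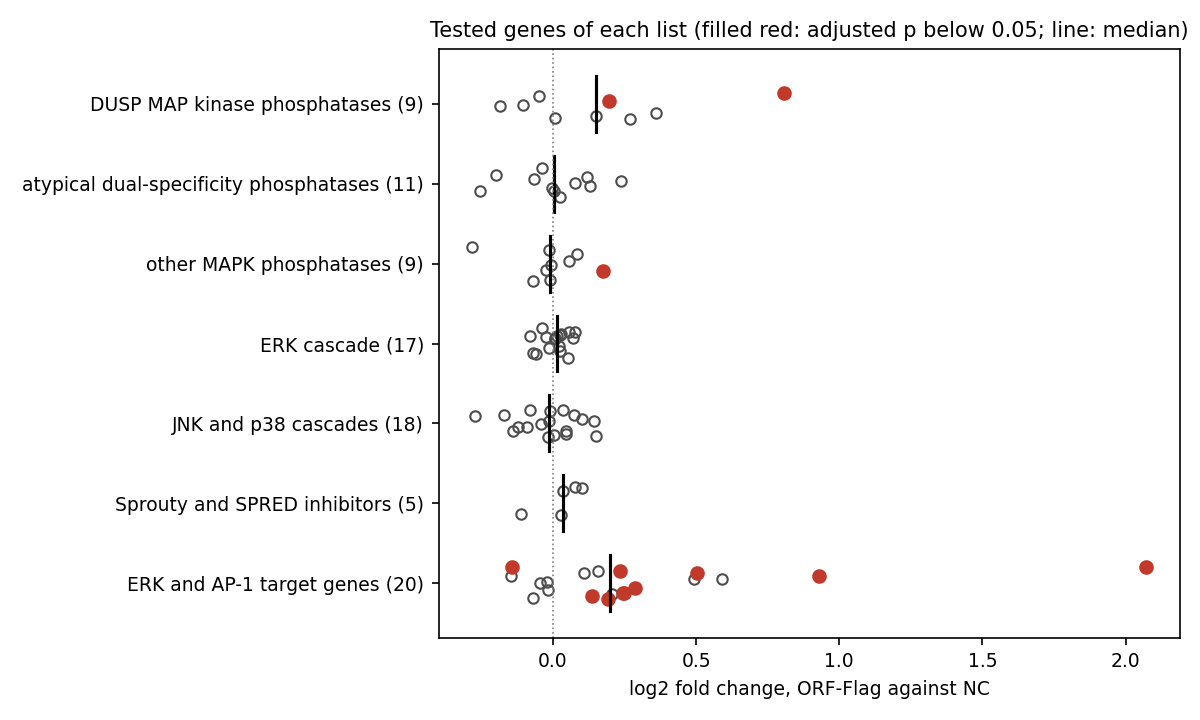
Log2 fold change of every tested gene of the DUSP family and of 6 lists of MAPK genes, with the number tested in brackets, filled red where the adjusted p was below 0.05, and the median of each list as a line. The ERK and AP-1 target genes have a median of 0.20 and 10 filled points, and the DUSP members a median of 0.15 and 2.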

How the data were processed

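RNA-Seq counts of 6 HepG2 libraries were used as the authors deposited them, raw and whole, 1 table of 20422 genes of which 20421 were matched to a symbol and 4055 had 0 counts in every library. Groups and replicates follow the sample labels. The submitters' processing notes name cutadapt 1.11, HISAT2 2.1.0, featureCounts 1.6.0, edgeR and GRCh38 without roles or order; the annotation release and strand setting are not given in the sources used here. Reads of similar or antisense genes may have been dropped or merged. No 2 libraries were identical.

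Tests were made with edgeR 4.0.16 in R 4.3.3 on all 6 libraries: filterByExpr (12386 genes kept), TMM, glmQLFit and glmQLFTest, with Benjamini-Hochberg adjustment over all tested genes, SEs from the F statistic and 95% intervals from the t distribution. Simulated data were run through edgeR (TMM, RLE or with the block), DESeq2 and both limma fits, and not through the other alternatives. Levels per length are TMM-scaled CPM per kilobase of exon (GENCODE v29, identifiers matched without version). Alternatives were DESeq2 1.42.0, limma 3.58.1 (trend, prior count 2, and voom), library totals, RLE factors, no filter, at least 10 counts in every library, a replicate block, 1 library left out at a time, a fold change above 1.2 with an unadjusted p, and the longest transcript as length. A correction of every library for trends on the GC content and length of transcripts, without and with the block, was chosen after seeing the data. Named genes are all members, the calls of each list (at most 4 of smallest p per direction), its most abundant gene per length, and the 3 genes most like each called member. FOSB, JUN, JUNB and ETV4, the other rises among ERK and AP-1 targets, lay outside the 4. JUN, JUNB and ETV4 are given without levels, and FOSB with its counts because they were near the floor in NC. PECAM1, TTR and the markers at 0 were named after their values were seen. Promoter windows are from RefSeq; protein features were not analysed here. The members and lists were chosen with earlier results of these data known. Figures were drawn with matplotlib 3.10.9.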

Additional observations from a re-analysis of the deposited data

How the results depend on the processing

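Of the 9 tested members, DUSP6 stayed past the threshold in all 16 alternative fits, DUSP5 in 15, and DUSP4, DUSP8, DUSP10 and DUSP16 kept their direction and stayed short of it in all 16. DUSP1 passed without the filter on low counts (adjusted p = 0.0193), with the replicate block (0.0487), without NC replicate 1, without ORF-Flag replicate 2 and with trends on GC content and length removed, without and with the replicate block (0.0181 and 0.0221); these p are from edgeR with Benjamini-Hochberg adjustment, and over its 16 alternative fits in edgeR, DESeq2 and limma the adjusted p ran from 0.0181 to 0.281. A fold change above 1.2 with an unadjusted p below 0.05 in edgeR also called 2 members, DUSP5 and DUSP1, beside 294 of all tested genes higher and 268 lower, so under this rule DUSP6 (1.14-fold) was lost and DUSP1 gained. DUSP9 passed only without NC replicate 3. DUSP7 turned to -0.0034 in limma-trend and ran from -0.063 to 0.077 with 1 library left out. The causes were not tested.

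With 1 library left out, the members that rose numbered 1 to 3 and those that fell 0 to 1, the other MAPK genes that rose 5 to 10 and those that fell 0 to 1, and all genes that rose 131 to 502 and those that fell 68 to 556. Without the filter 410 genes rose and 414 fell. With the GC and length trends removed, 412 genes rose and 404 fell, and 450 and 471 with the replicate block added. Of the other MAPK genes 12 rose and 2 fell in both of these fits. On the longest transcript the levels per length were 0.177 RPKM for DUSP4, 2.39 for DUSP7, 58.3 for DUSP9, 2.50 for DUSP10 and 16.0 for DUSP16, and DUSP5 no longer crossed DUSP7.

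The replicate numbers were not taken as pairs, because nothing in the labels says that a number marks a shared culture or day. Deviations of same-numbered libraries from their group means correlated at 0.067, 0.027 and 0.045, and 5 of 6 libraries correlated best with their own number. Whether the numbers mark pairs was not tested. The replicate block moved the calls from 306 to 387 rises and from 245 to 344 falls. DUSP2 and DUSP4 had the fewest counts of the members, at up to 1 and 29. Whether depth limits the result for DUSP4 was not tested.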
